A study of Mus musculus with 12 samples.

Results

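The comparison of retrieval-extinction (RE) with fear conditioning (F) took in 6 of the 12 small RNA libraries of the series, 3 from RE mice and 3 from F mice, and every mature miRNA of the count table. Lines that repeated the sequence and the counts of another line were kept once, which left 1060 miRNAs, 307 of them predictions that the authors added to the annotated set, and 431 had enough counts to be tested. The tissue was the basolateral amygdala (BLA) of male C57BL/6J mice 10 weeks old, from separate animals, although the submitters' design note for the series calls the profiles retinal. RE mice were conditioned with tones paired with foot shocks in a first context, received a single retrieval tone in a second context on the next day, rested in the home cage and then went through extinction training, and their tissue was taken an hour after the last training. E mice were conditioned and extinguished in the same way without the retrieval tone, and C mice went through the conditioning session without shocks. F mice were conditioned only, and their tissue was taken an hour after that session. RE tissue was therefore collected about a day later after conditioning than F tissue, and the retrieval tone, the extinction training, the second context and the added time cannot be told apart in this comparison. The RE libraries carry the replicate numbers 3, 4 and 5 and the F libraries 1, 2 and 3.

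A miRNA is a short RNA cut from a hairpin precursor, and each hairpin can give a mature miRNA from its 5′ arm (5p) and from its 3′ arm (3p). It pairs with messenger RNAs mainly through its seed, bases 2 to 8 from the 5′ end, and lowers their translation and stability, so that miRNAs with a common seed can share targets. In the BLA, a centre for learned fear, neurons are surrounded by astrocytes, oligodendrocytes, microglia and vessels, and several miRNAs are known mainly from 1 of these cell types. A level in dissected tissue is the sum over all of them, so fewer cells of a type and less of the miRNA per cell cannot be told apart.

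Sequences of miRNAs described below are given as the deposited count table has them, in RNA letters from 5′ to 3′, with the seed in capitals, and are grouped by seed where members share it. Of the 388 annotated miRNAs tested, 337 matched a mature miRNA of RefSeq (GRCm38.p6) by name and sequence and 340 lay within a RefSeq hairpin. A group of miRNAs that were higher in RE is shown first.
miR-206-3p: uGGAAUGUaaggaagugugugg
miR-338-3p: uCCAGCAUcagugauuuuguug
miR-219a-2-3p: aGAAUUGUggcuggacaucugu
miR-34a-5p: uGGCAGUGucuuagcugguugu
miR-34c-5p: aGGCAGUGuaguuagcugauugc
miR-449a-5p: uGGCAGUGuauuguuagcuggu
miR-181a-5p: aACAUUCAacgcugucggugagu
miR-181b-5p: aACAUUCAuugcugucggugggu
A group that was lower in RE follows, first miR-7 with its 2 predicted longer forms, which differ from the annotated miRNAs only by an added base at the 3′ end, then the miR-200 family, then the miRNAs from introns of Htr2c.
miR-7a-5p: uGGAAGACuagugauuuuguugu
longer form of miR-7a-5p: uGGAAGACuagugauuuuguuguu
miR-7b-5p: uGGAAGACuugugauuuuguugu
longer form of miR-7b-5p: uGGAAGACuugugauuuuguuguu
miR-200b-3p: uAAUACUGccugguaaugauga
miR-200c-3p: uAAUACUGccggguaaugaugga
miR-429-3p: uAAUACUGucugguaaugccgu
miR-200a-3p: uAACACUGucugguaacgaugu
miR-1298-3p: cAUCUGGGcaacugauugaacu
miR-448-3p: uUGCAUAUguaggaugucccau
shorter form of miR-448-3p: uUGCAUAUguaggauguccca

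The RE libraries held 1093194, 1388259 and 1925516 counts (replicates 3, 4 and 5), and the F libraries 1463127, 1276794 and 2353896 counts (replicates 1, 2 and 3). In each group of 3 a single library stood apart: RE replicate 4 and F replicate 1, like 1 E and 1 C library, had more let-7g-5p than any other miRNA, while miR-148a-3p led in the other 8 libraries. miR-148a-3p took 136400 CPM (counts per 1000000), 19074 CPM and 146020 CPM in RE replicates 3, 4 and 5, against 22341 CPM, 139407 CPM and 174438 CPM in F replicates 1, 2 and 3. The first principal component, with 72.3% of the variance over the 6 libraries, separated RE replicate 4 and F replicate 1 from the other 4 and did not separate RE from F. Results are therefore given from all 12 libraries in 1 edgeR fit and, where it matters, with a term for these 2 library sets and within each set. What made the 2 sets differ is not given in the labels.

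No miRNA differed between RE and F at an adjusted p under 0.05 (edgeR's quasi-likelihood test with Benjamini-Hochberg adjustment, smallest adjusted p = 0.9999 over 431 miRNAs), and DESeq2 also called 0, with a smallest adjusted p of 0.424. By the limits in the study's methods, a log2 fold change of 1 or more in size and an unadjusted p under 0.05, 3 miRNAs were higher in RE (0.696% of those tested), namely miR-206-3p, miR-187-3p and miR-338-3p, and 0 were lower (0%). At an unadjusted p under 0.05 alone there were 9 miRNAs with edgeR (2.09%), 6 of them higher (1.39%) and 3 lower (0.696%), and 15 with DESeq2 (3.48%), of which 2 were higher past the limits (0.464%) and 1 lower (0.232%). Each difference named below is therefore a measured level with its spread and not a change past the threshold. The differences were balanced under TMM scaling, which itself evens out the typical difference: 217 miRNAs were higher (50.3%) and 214 lower (49.7%). The median log2 fold change was 0.0012, with a median size of 0.19 and a range from -1.46 to 2.15. When library totals replaced the TMM scaling, 186 were higher and the median was -0.07. The choice of library moved these counts. Without F replicate 3 there were 8 miRNAs higher and 3 lower, without F replicate 2 there were 2 and 4, without RE replicate 4 there were 6 and 5, and without RE replicate 3 there were 1 and 1.

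With the term for the library sets 5 miRNAs were higher past these limits (1.16%) and 2 lower (0.464%), and 47 had an unadjusted p under 0.05 (10.9%), with a smallest adjusted p of 0.194 in edgeR. The common dispersion, edgeR's measure of the spread between libraries beyond counting error, was 0.184 without the term and 0.0294 with it. In the 8 libraries left when the let-7g-5p libraries of all 4 groups were set aside, 424 miRNAs were tested, 8 were higher (1.89%) and 2 lower (0.472%), 43 had an unadjusted p under 0.05 (10.1%), and the smallest adjusted p was 0.206. Of 61 miRNAs followed through the alternatives, 46 kept their direction under every alternative that was run, single libraries left out included. Part of the 61 were picked for passing the limits or for levels without overlap, which makes a turn less likely. The count therefore does not describe all 431 tested miRNAs.

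**Figure D1:**
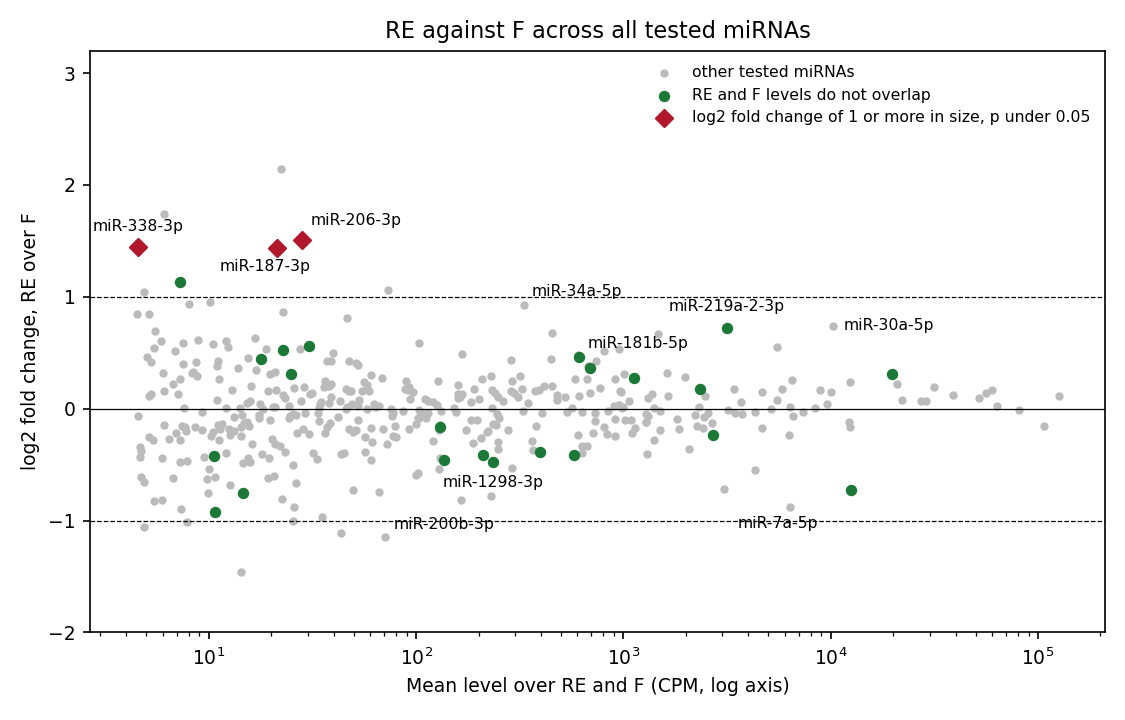
Each point is 1 of 431 miRNAs, placed by its mean level over the RE and F libraries (CPM, log axis) and by its log2 fold change, RE over F, from edgeR. The 3 red diamonds pass a log2 fold change of 1 (dashed lines) with an unadjusted p under 0.05, all on the side higher in RE, and the green points are the other miRNAs whose 3 RE and 3 F levels do not overlap.

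Of all tested miRNAs, 13 had all 3 RE levels above all 3 F levels (3.02%) and 11 had them all below (2.55%), together 24 (5.57%). The 13 were miR-206-3p, miR-187-3p, miR-34c-3p, miR-219a-2-3p, miR-378a-5p, a predicted miRNA of chromosome 7, miR-181b-5p, miR-30d-3p, miR-25-3p, miR-15b-5p, miR-27b-3p, a predicted miRNA of chromosome 8 and miR-132-3p, in falling order of fold change. The 11 were miR-344f-3p, the shorter form of miR-448-3p, the longer form of miR-7a-5p, miR-1298-3p, miR-137-3p, miR-199b-5p, miR-384-5p, miR-221-5p, miR-335-5p, miR-543-3p and miR-380-5p, from the most negative value up. All of these but miR-206-3p, miR-187-3p and miR-34c-3p had a log2 fold change under 1 in size, and miR-338-3p, which passed the limits, was not among them.

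miR-206-3p, a skeletal muscle miRNA that is also known to repress the neurotrophin gene Bdnf, had the smallest p of the comparison. Its hairpin lies on chromosome 1 at 20679010 to 20679082 (GRCm38.p6, plus strand), in an exon of the long non-coding RNA Gm28653. Its level was 57.1, 27.7 and 40.8 CPM in RE replicates 3, 4 and 5, against 9.05, 11.1 and 23.0 CPM in F replicates 1, 2 and 3. Every RE library was above every F library, and the closest pair was RE replicate 4 and F replicate 3. The mean was 41.8 ± 14.7 CPM in RE and 14.4 ± 7.55 CPM in F (SD, n = 3 each), from 36 to 74 counts in RE libraries and 14 to 48 counts in F libraries. This was a log2 fold change of 1.51 with a standard error of 0.44 (edgeR, unadjusted p = 0.00627, adjusted p = 0.9999). It was 1.48 with the library-set term and 1.44 without the let-7g-5p libraries, and 1.21 to 2.05 when each library was left out in turn. Within the sets the difference was 1.49 between RE replicate 4 and F replicate 1, and 1.51 between the other 2 RE and the other 2 F libraries. The muscle miRNA miR-1a-3p moved in the same direction, with 1111, 988 and 1270.3 CPM in RE replicates 3, 4 and 5 against 386, 759.7 and 1185 CPM in F replicates 1, 2 and 3, which overlapped (log2 fold change 0.53 ± 0.38, SE). Of the 9 muscle miRNAs listed, 4 were in the table and 2 were tested, and the listed miR-133a-3p and miR-133b-3p had at most 2 counts in any library. The summed level of the 2 tested was 1016 to 1311 CPM in RE libraries and 395 to 1208 CPM in F libraries, nearly all of it miR-1a-3p. The part of muscle in the difference of miR-206-3p was not tested.

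miR-187-3p came from a hairpin on chromosome 18. It had 48.4, 16.9 and 29.2 CPM in RE replicates 3, 4 and 5 and 12.3, 6.35 and 15.4 CPM in F replicates 1, 2 and 3. The groups did not overlap, but RE replicate 4 at 16.9 CPM was close to F replicate 3 at 15.4 CPM. The mean was 31.5 ± 15.9 CPM in RE and 11.3 ± 4.58 CPM in F (SD, n = 3 each), and the log2 fold change was 1.44 ± 0.59 (SE). With an edgeR p of 0.0341 it passed the limits, but not when F replicate 1, F replicate 2, RE replicate 3 or RE replicate 5 was left out, with log2 fold changes from 0.99 to 1.76 over all libraries left out in turn. The other arm, miR-187-5p, had 15.5, 2.31 and 10.5 CPM in RE replicates 3, 4 and 5 against 4.52, 2.38 and 1.44 CPM in F replicates 1, 2 and 3. RE replicate 4 thus lay within the F range for this arm, and the fold change depended on the library set: -0.69 between RE replicate 4 and F replicate 1, and 2.15 in the other set (log2). Over all libraries it was 1.74 ± 0.87 (SE), and without the let-7g-5p libraries 2.75, which passed the limits. Of the 4 tested members of the list of miR-184, miR-187 and miR-375, 3 were higher in RE under each scaling, 2 of them the arms of miR-187. miR-375-3p differed by 0.011, which turned with DESeq2's size factors and with library totals. The median of the 4 was 1.01 (0.0012 for all tested miRNAs), as a description only, since the list was chosen with earlier results of these data known. miR-184-3p contributed 98.7, 164 and 109.7 CPM in RE replicates 3, 4 and 5 and 45.9, 72.2 and 129.1 CPM in F replicates 1, 2 and 3, with overlap. Its log2 fold change of 0.59 ran from 0.27 to 1.06 when each library was left out. Under the other alternatives it ran from 0.043 to 0.62.

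**Figure D2:**
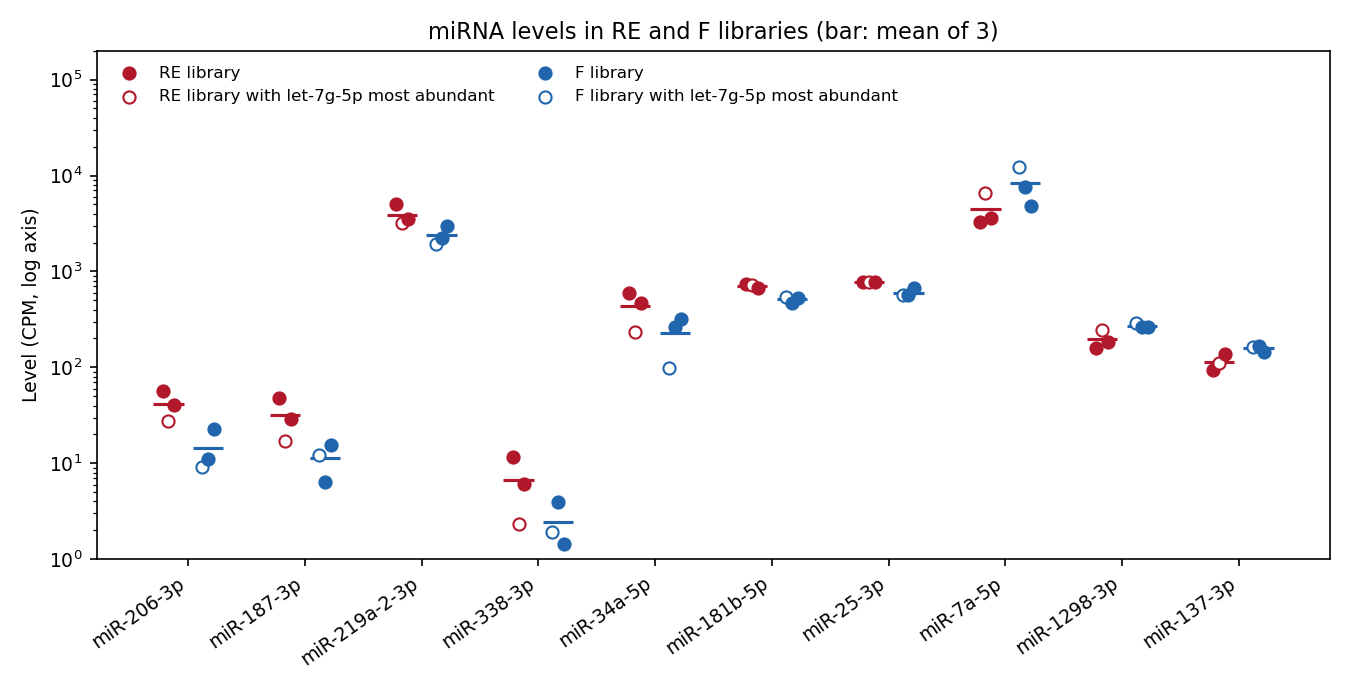
Levels of 10 miRNAs (CPM, log axis) in the 3 RE libraries (red, left of each pair) and the 3 F libraries (blue, right), with a bar at each mean. Open circles are RE replicate 4 and F replicate 1, which were led by let-7g-5p, and the RE points of miR-206-3p, from 27.7 to 57.1 CPM, lie above the F points, from 9.05 to 23.0 CPM.

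Oligodendrocytes make myelin, and miR-219 and miR-338 are known from mouse for driving their precursors to mature. All 3 tested members of this list were higher in RE, with log2 fold changes of 0.72 to 1.44, and 2 of them had an unadjusted p under 0.05, where 50.3% of all tested miRNAs were higher and 2.09% had such a p. The 2 were miR-219a-2-3p and miR-338-3p, of which miR-338-3p had 3 to 12 counts a library. The median of the 3 was 0.84, the value of the scarce miR-219a-5p, and it was 0.48 without RE replicate 3 and 1.27 without RE replicate 4. The abundant member was miR-219a-2-3p, from a hairpin on chromosome 2 at 29845631 to 29845727 (GRCm38.p6, minus strand). It reached 5020.5, 3177 and 3541 CPM in RE replicates 3, 4 and 5, against 1922, 2237 and 2963 CPM in F replicates 1, 2 and 3. All RE libraries were above all F libraries. The mean was 3913 ± 976 CPM in RE and 2374 ± 534 CPM in F (SD, n = 3 each), and the log2 fold change was 0.72 ± 0.23 (SE). edgeR gave it an unadjusted p of 0.00935, and 0.000456 with the library-set term, the smallest p of that fit, for which the adjusted p was 0.194. The differences within the library sets were 0.72 and 0.71, nearly the same, and 0.48 to 0.91 when each library was left out. The 5′ arm, miR-219a-5p, was at 13.5, 2.31 and 4.41 CPM in RE replicates 3, 4 and 5 and 2.59, 3.18 and 4.798 CPM in F replicates 1, 2 and 3, with 3 to 14 counts a library. At this depth only RE replicate 3 stood out for miR-219a-5p, whose log2 fold change of 0.84 was -0.079 without that library.

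miR-338-3p, from an intron of Aatk on chromosome 11 at 120014765 to 120014862 (GRCm38.p6, minus strand), had 11.6, 2.31 and 6.06 CPM in RE replicates 3, 4 and 5 and 1.94, 3.97 and 1.44 CPM in F replicates 1, 2 and 3. These levels stand for 3 to 12 counts in RE libraries and 3 to 5 counts in F libraries, and RE replicate 4 lay within the F range. The log2 fold change of 1.44 ± 0.65 (SE) had an edgeR p of 0.04996, just inside the limit, and passed the limits in 5 of 20 alternatives in which it was tested, those with annotated miRNAs alone, with the library-set term, without the let-7g-5p libraries, without F replicate 2 and without RE replicate 4. Reads of the other arm went mostly to a predicted miRNA that is miR-338-5p without its last base, at 863, 671 and 573 CPM in RE replicates 3, 4 and 5 against 478, 437 and 599 CPM in F replicates 1, 2 and 3. A single F library, replicate 3, was above RE replicate 5, and the log2 fold change was 0.48 ± 0.22 (SE). Summed over the 3 tested members of the list, the oligodendrocyte level was 3181 to 5046 CPM in RE libraries and 1927 to 2969 CPM in F libraries. Nearly all of it was miR-219a-2-3p.

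miR-34a-5p is known from the mouse amygdala for its part in consolidating fear memory, and miR-34c-5p and miR-449a-5p carry the same seed and mark multiciliated cells such as ependyma. All 3 were higher in RE, with a median log2 fold change of 0.93. miR-34a-5p had 593, 234 and 473 CPM in RE replicates 3, 4 and 5, against 97.6, 264 and 321 CPM in F replicates 1, 2 and 3. RE replicate 4, from the let-7g-5p set, lay below 2 of the F libraries, and F replicate 1 of the same set was the lowest of all. The log2 fold change was 0.93 ± 0.45 (SE, edgeR, unadjusted p = 0.0640), and with the library-set term it was 0.96 (unadjusted p = 0.00189, adjusted p = 0.195). It was 0.55 without F replicate 1, 0.61 without RE replicate 3 and 1.25 without F replicate 3. Within the sets miR-34a-5p differed by 1.25 and by 0.86 on the log2 scale. miR-34c-5p was at 891, 239 and 419.9 CPM in RE replicates 3, 4 and 5 and at 388, 388 and 359 CPM in F replicates 1, 2 and 3. For this miRNA the direction differed between the sets, -0.70 and 0.71, and its fold change of 0.45 ± 0.47 (SE) was -0.22 without RE replicate 3. miR-449a-5p had 4 to 27 counts a library and a log2 fold change of 0.93 ± 0.69 (SE), and miR-34c-3p, at 8.46 to 12.6 CPM in RE and 1.92 to 7.76 CPM in F, did not overlap between the groups (1.13 ± 0.89, SE).

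miR-181a-5p and miR-181b-5p, which share a seed and a pair of clusters on chromosomes 1 and 2, are abundant in brain and are best known for tuning T cell receptor signalling. miR-181b-5p stood at 741, 718 and 668 CPM in RE replicates 3, 4 and 5, against 546, 469 and 526 CPM in F replicates 1, 2 and 3. The replicates were close together in both groups, with means of 709 ± 37.1 CPM in RE and 514 ± 40.0 CPM in F (SD, n = 3 each). Their log2 fold change was 0.46 ± 0.17 (SE, edgeR, unadjusted p = 0.0225) and 0.40 to 0.49 when each library was left out. miR-181a-5p had 2379, 1867 and 2293 CPM in RE replicates 3, 4 and 5 and 1528, 1797 and 2045 CPM in F replicates 1, 2 and 3, which overlapped, with a log2 fold change of 0.28 ± 0.18 (SE). The 6 tested members of the family were split, 3 higher and 3 lower, with a median of 0.04 (-0.098 without F replicate 1).

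Other abundant miRNAs were slightly higher in RE. miR-25-3p, of the cluster within Mcm7, had 785, 773 and 776 CPM in RE replicates 3, 4 and 5 against 564, 571 and 674 CPM in F replicates 1, 2 and 3, a log2 fold change of 0.37 ± 0.18 (SE). miR-27b-3p had 23202, 22278 and 19852 CPM in RE replicates 3, 4 and 5 against 15174, 18400.2 and 19116 CPM in F replicates 1, 2 and 3 (0.31 ± 0.17, SE). Neither overlapped between the groups, and RE replicate 5 and F replicate 3 were the closest pair for miR-27b-3p. miR-21a-5p, known from reactive glia, was at 7932, 5058 and 6558 CPM in RE replicates 3, 4 and 5 and 2678, 5152 and 5531 CPM in F replicates 1, 2 and 3. It overlapped through RE replicate 4, and its log2 fold change of 0.55 ± 0.32 (SE) was 0.59 with the library-set term (edgeR, unadjusted p = 0.00228, adjusted p = 0.195). In the miR-30 family 10 of 11 tested members were higher, with a median of 0.18. miR-30a-5p had 11844, 3968 and 22831 CPM in RE replicates 3, 4 and 5 against 2786, 9926 and 10476 CPM in F replicates 1, 2 and 3, so that RE replicate 5 alone was far above the rest and the log2 fold change of 0.74 ± 0.78 (SE) was 0.00081 without RE replicate 5. miR-384-5p shares the miR-30 seed and is known from rat hippocampus for the maintenance of synaptic potentiation. It was lower, at 474, 566 and 439 CPM in RE replicates 3, 4 and 5 against 710.3, 673 and 587 CPM in F replicates 1, 2 and 3, without overlap (log2 fold change -0.41 ± 0.21, SE, edgeR, unadjusted p = 0.0806).

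miR-7, abundant in the hypothalamus, the pituitary and other neuroendocrine tissue, was lower in RE. miR-7a-5p, which is cut from hairpins on chromosome 13, in an intron of Hnrnpk, and on chromosome 7, had 3297, 6561 and 3594 CPM in RE replicates 3, 4 and 5, against 12328, 7637 and 4834 CPM in F replicates 1, 2 and 3. RE replicate 4 was above F replicate 3, and within each library set RE was below F, by 0.91 and 0.82 on the log2 scale. The log2 fold change was -0.88 ± 0.43 (SE, edgeR, unadjusted p = 0.0660), and with the library-set term it was also -0.88 (unadjusted p = 0.00982, adjusted p = 0.274). It was -0.50 without F replicate 1 and -1.24 without RE replicate 4. The longer form of miR-7a-5p was more abundant than the annotated one, at 8058, 11319 and 8790.1 CPM in RE replicates 3, 4 and 5 and 19912, 15105 and 11692 CPM in F replicates 1, 2 and 3. Its groups did not overlap (log2 fold change -0.73 ± 0.29, SE, edgeR, unadjusted p = 0.0299). miR-7b-5p from chromosome 17 (-0.71), its longer form (-0.55) and miR-7a-2-3p (-0.75) were lower too, each with overlap between the groups, and without F replicate 1 they were at -0.28, -0.22 and -0.28, while miR-7a-1-3p, the other arm of the chromosome 13 hairpin, was slightly higher (0.21 ± 0.27, SE). Since the longer forms contain the annotated sequences, their reads were also summed. Over the 4 entries there were 15420.3, 26153 and 17405 CPM in RE replicates 3, 4 and 5 against 45411 CPM, 30500.3 CPM and 22245 CPM in F replicates 1, 2 and 3. The mean was 19659 ± 5711 CPM in RE and 32719 ± 11741 CPM in F (SD, n = 3 each), so the RE mean was 60.1% of the F mean. Of the 5 tested members of the hypothalamus and pituitary list 3 were lower under each scaling, all of them miR-7, and the median was -0.71, or -0.28 without F replicate 1.

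Htr2c encodes a serotonin receptor, and its introns on the X chromosome hold several miRNAs. Of the 6 tested, 5 were lower in RE, with a median log2 fold change of -0.45, or -0.095 without F replicate 1. Their summed level was 2682, 859 and 4020 CPM in RE replicates 3, 4 and 5. In F replicates 1, 2 and 3 it was 1220, 3503 and 3996 CPM, so the groups overlapped. miR-1298-3p, from a hairpin at 147064905 to 147065002 of chromosome X (GRCm38.p6, plus strand), had 158, 245 and 184 CPM in RE replicates 3, 4 and 5 and 289.5, 264 and 263 CPM in F replicates 1, 2 and 3. The F libraries were close together and all RE libraries were below them, RE replicate 4 by the least. The log2 fold change was -0.48 ± 0.20 (SE, edgeR, unadjusted p = 0.0387), and -0.62 without the let-7g-5p libraries. That of the other arm, miR-1298-5p, was -0.16. The shorter form of miR-448-3p, listed as a prediction, had 8.71, 12.3 and 11.6 CPM in RE replicates 3, 4 and 5 against 20.04, 19.1 and 16.3 CPM in F replicates 1, 2 and 3, again without overlap (-0.75 ± 0.29, SE, edgeR, unadjusted p = 0.0264). miR-448-3p itself had 4 to 19 counts a library and overlapped (-0.62 ± 0.54, SE). miR-1264-3p was at 69.6, 164 and 98.6 CPM in RE replicates 3, 4 and 5 and 242, 119.9 and 88.3 CPM in F replicates 1, 2 and 3, and differed by -0.56 and -0.31 within the library sets.

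The miR-200 family, known for repressing Zeb1 and Zeb2 in epithelia, was lower on average in RE, and the direction turned for some members without the let-7g-5p libraries. miR-200b-3p had 33.9, 43.8 and 54.6 CPM in RE replicates 3, 4 and 5, against 195, 21.4 and 77.2 CPM in F replicates 1, 2 and 3. F replicate 1 was far above all others, and F replicate 2 was below every RE library. The log2 fold change was -1.15 ± 0.61 (SE, edgeR, unadjusted p = 0.0869). miR-200a-3p had 72.6, 109 and 176 CPM in RE replicates 3, 4 and 5 and 417, 49.2 and 165 CPM in F replicates 1, 2 and 3, with the same order of the F libraries. All 4 tested members were lower, by -0.82 to -1.46, with a median of -1.02, and the median was -0.87 with the library-set term, 0.14 without F replicate 1 and 0.08 without the let-7g-5p libraries, where miR-200a-3p (0.23) and miR-200c-3p (0.43) turned to the other direction. Within the sets miR-200b-3p differed by -2.12 between RE replicate 4 and F replicate 1 and by 0.07 between the others. Without F replicate 2 the 4 lower miRNAs past the limits were these 4, and the values when each library was left out ran from -1.59 to -0.19 for miR-200b-3p. The summed level of the 4 tested family members was 122 to 258 CPM in RE libraries and 76.2 to 735 CPM in F libraries. The 2 tested epithelial and skin miRNAs, of 6 listed, summed to 88.0 to 143.8 CPM in RE and 123 to 180.2 CPM in F. F replicate 1 was not the highest of these. The part of epithelial tissue in the miR-200 levels of F replicate 1 was not tested. The miR-183 cluster, known from sensory cells and the retina, was also lower on average in RE and was highest in F replicate 1 when summed. Unlike that of the miR-200 family, its median kept its direction. miR-182-5p, with a log2 fold change of -0.97 (edgeR, unadjusted p = 0.150), stayed lower under every alternative. It ran from -1.27 to -0.67 with each library left out and from -1.04 to -0.46 under the others. miR-183-5p had 140.3, 139.9 and 227 CPM in RE replicates 3, 4 and 5 and 478, 94.5 and 299.9 CPM in F replicates 1, 2 and 3, the 3 tested members of the cluster had a median of -0.78, and it was -0.42 without F replicate 1 and -0.10 without the let-7g-5p libraries.

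**Figure D3:**
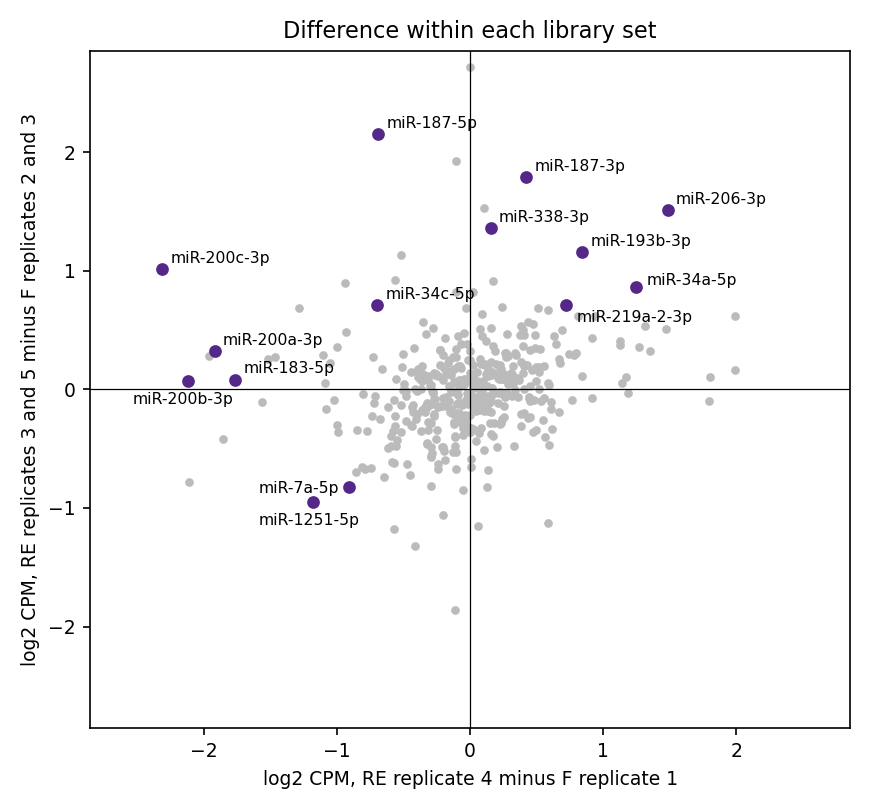
Each point is 1 of 431 miRNAs. The x axis is the log2 CPM difference between RE replicate 4 and F replicate 1, the libraries led by let-7g-5p, and the y axis is the same difference between RE replicates 3 and 5 and F replicates 2 and 3. miR-206-3p, miR-219a-2-3p and miR-34a-5p lie in the upper right and miR-7a-5p in the lower left, while miR-200a-3p, miR-200b-3p and miR-200c-3p lie far to the left of the vertical line and at or above 0 on the y axis.

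Over all tested miRNAs, 258 of 431 (59.9%) had the same direction in both library sets. Across miRNAs the 2 differences had a Pearson r of 0.20 and a Spearman rho of 0.29, as a description of 431 miRNAs that share the same 6 libraries. miR-193b-3p and miR-1251-5p, which lies in an intron of the long non-coding RNA Rmst, passed the limits with the library-set term, and also where no filter was set, but not in the fit of all libraries without the term. miR-193b-3p passed them as well without the let-7g-5p libraries. miR-193b-3p had 152.8, 25.4 and 118 CPM in RE replicates 3, 4 and 5 against 13.6, 41.3 and 86.4 CPM in F replicates 1, 2 and 3, and differed by 0.84 and 1.15 within the sets (1.02 with the term, edgeR, unadjusted p = 0.00424, adjusted p = 0.228). miR-1251-5p had 20.3, 3.84 and 26.5 CPM in RE replicates 3, 4 and 5 against 10.3, 45.3 and 47.0 CPM in F replicates 1, 2 and 3, and differed by -1.18 and -0.95 (-1.03 with the term, edgeR, unadjusted p = 0.00272, adjusted p = 0.195). For both, the 2 library sets differed more from each other than RE from F. RE replicates 3 and 5 did not overlap F replicates 2 and 3. The other set has 1 library of each group and cannot show overlap.

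Neuron-enriched miRNAs were close to even. Of 16 tested, 10 were higher and 6 lower (8 higher with library totals), with a median log2 fold change of 0.05, and their summed level was 111464 to 136537 CPM in RE and 99068 to 145996 CPM in F. miR-128-3p, the most abundant of them, had 68115, 64315 and 60477 CPM in RE replicates 3, 4 and 5 and 57007, 59443 and 72842 CPM in F replicates 1, 2 and 3. miR-137-3p, a regulator of neuronal maturation, was the exception without overlap, at 94.8, 111 and 137.8 CPM in RE replicates 3, 4 and 5 against 162, 166 and 143.9 CPM in F replicates 1, 2 and 3 (log2 fold change -0.46 ± 0.23, SE, edgeR, unadjusted p = 0.0721). Of the activity-regulated miR-132 and miR-212, which CREB induces, 2 of 4 tested were higher. miR-132-3p was at 2384, 2525 and 2527 CPM in RE replicates 3, 4 and 5 and 2339, 2193 and 2069.7 CPM in F replicates 1, 2 and 3, a difference of 0.17 ± 0.18 (SE) in which the groups did not overlap but RE replicate 3 and F replicate 1 nearly met. Of the 11 tested miRNAs listed from earlier reports on fear memory 7 were higher (6 with library totals). Their median was 0.10 (-0.074 without RE replicate 3 and -0.066 without F replicate 1), and none besides miR-132-3p was free of overlap.

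Markers of other cell types differed by list, and the medians of several lists changed sign when a single library was left out. The 2 tested endothelial miRNAs had a median of 0.07, with miR-126a-3p at 5457 to 10015 CPM in RE and 5129.7 to 10342 CPM in F. Erythrocyte miRNAs, 4 of 5 higher, had a median of 0.20 (-0.13 without F replicate 2), and miR-451a was at 175 to 466 CPM in RE and 144.1 to 335 CPM in F. Of the leukocyte and microglia miRNAs 5 of 6 were lower, with a median of -0.41 (-0.16 without F replicate 3 and -0.67 without F replicate 1), among them miR-223-3p at 1.93 to 9.92 CPM in RE and 4.52 to 14.9 CPM in F. The choroid plexus and ependyma list, 5 of 6 higher, had a median of 0.32 (-0.090 without RE replicate 3 and 0.64 without RE replicate 4), in which miR-204-5p, the most abundant, was at 726 to 1030.2 CPM in RE and 748 to 1436 CPM in F. miR-143-3p, of smooth muscle, was at 4324 to 7630.0 CPM in RE and 3623 to 8727 CPM in F. Its cluster had a median of -0.03 (0.16 without F replicate 3 and 0.17 without RE replicate 4). The let-7 guide strands (9 tested, 7 higher or 6 with library totals, median 0.17, from -0.42 without RE replicate 4 to 0.64 without F replicate 1) and the 67 tested miRNAs of the Dlk1-Dio3 cluster (25 higher or 23 with library totals, median -0.08), a large imprinted cluster, both included members on each side of 0.

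**Figure D4:**
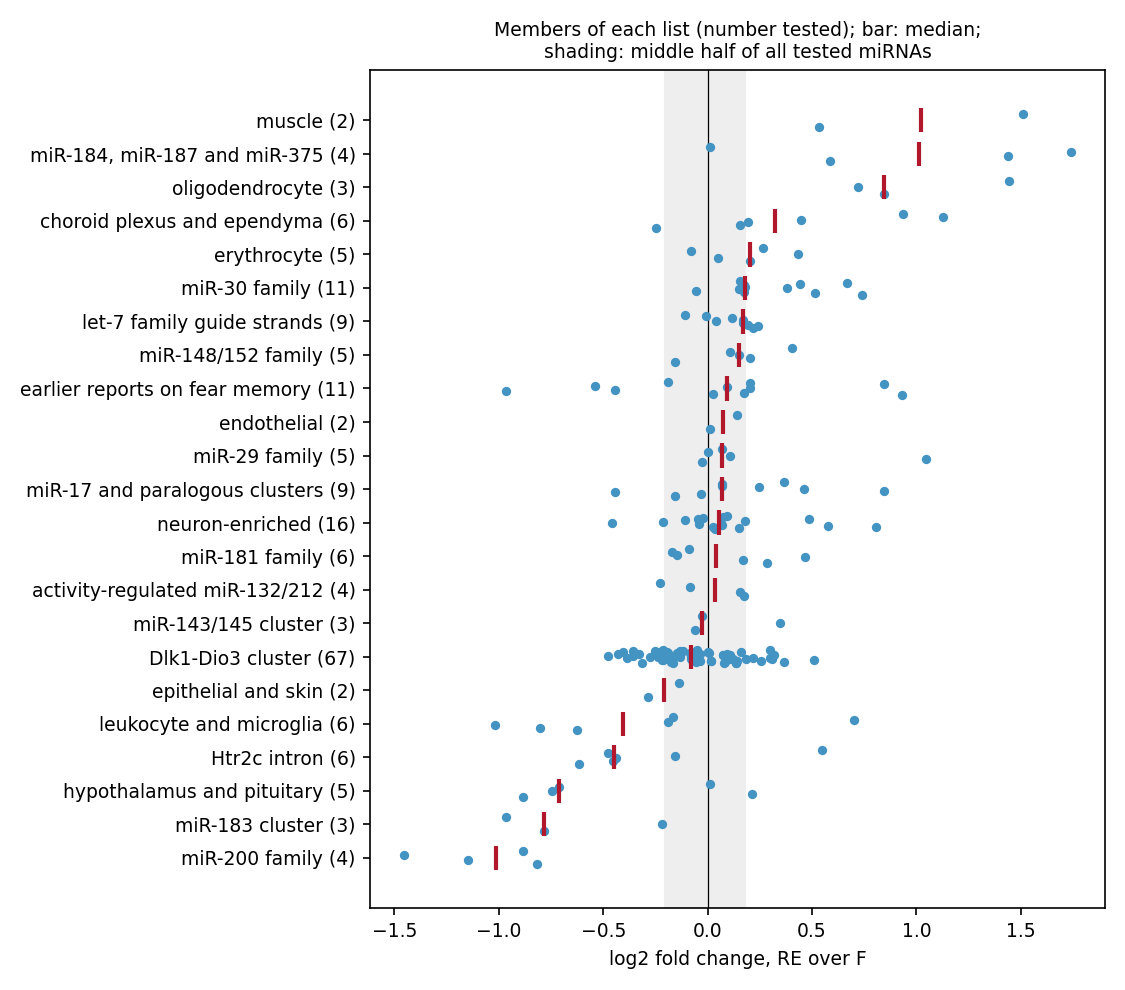
Each blue point is the log2 fold change, RE over F, of a tested miRNA in the list named at the left, with the number tested in brackets, a red bar at the list's median, and shading over the range that holds the middle 50% of all tested miRNAs. The oligodendrocyte list (median 0.84, or 0.48 without RE replicate 3) lies to the right of the shading and the hypothalamus and pituitary list (median -0.71, or -0.28 without F replicate 1) and the miR-200 family (median -1.02, or 0.14 without F replicate 1) to the left, from 3, 5 and 4 miRNAs. The muscle list (1.02) and the list of miR-184, miR-187 and miR-375 (1.01) lie further right. The miR-183 cluster (-0.78) lies to the left of the hypothalamus and pituitary list.

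The levels in E and C mice place the RE and F values beside the other groups. miR-206-3p averaged highest in RE, with 20.1, 28.0 and 29.2 CPM in E replicates 1, 2 and 3 and 26.4, 12.9 and 11.7 CPM in C replicates 1, 2 and 3, and the E libraries overlapped the RE libraries only at RE replicate 4. For miR-219a-2-3p the F libraries were the low ones: E libraries had 3711, 3624 and 3651 CPM and C libraries 3507, 2940.4 and 3124 CPM (replicates 1, 2 and 3), and F replicate 3 alone reached the C range. miR-187-3p was at 30.1, 90.8 and 42.6 CPM in E replicates 1, 2 and 3 and at 37.5, 12.9 and 14.5 CPM in C replicates 1, 2 and 3, so that the E libraries lay within or above the RE range and 2 of the C libraries lay below it. For miR-34a-5p RE replicates 3 and 5 were above every other library, with E at 217 to 329.8 CPM and C at 162 to 265 CPM. miR-7a-5p in E (5245 to 7612 CPM) and C (5308 to 13530.3 CPM) was above RE replicates 3 and 5 in every library. miR-200b-3p was lower in E (15.4 to 23.6 CPM) and C (7.18 to 16.0 CPM) than in every RE library. No test between these groups is given here.

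**Figure D5:**
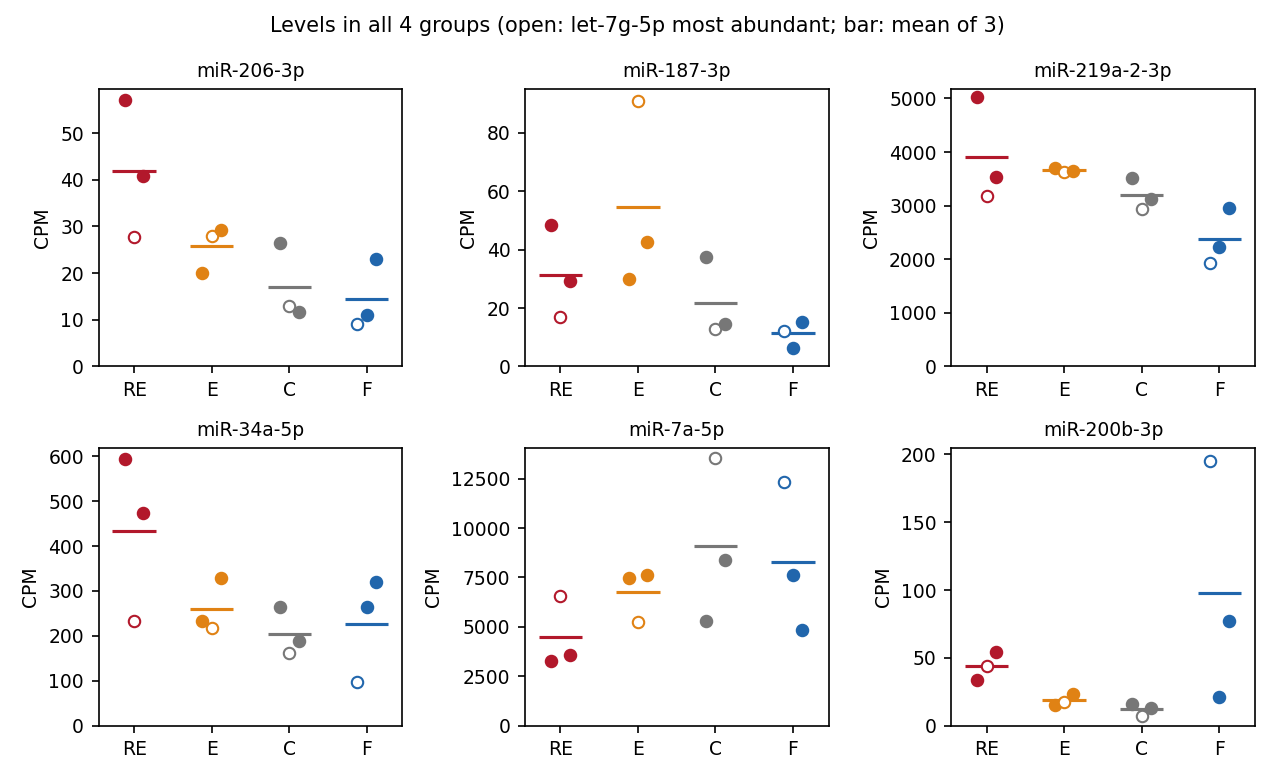
Levels of 6 miRNAs in CPM (axis from 0) in the 3 libraries of each of the RE, E, C and F groups, with a bar at the mean and open circles for the libraries led by let-7g-5p. The F libraries are low for miR-219a-2-3p (1922 to 2963 CPM), RE replicates 3 and 5 are the highest for miR-206-3p and miR-34a-5p, and F replicate 1 alone stands at 195 CPM for miR-200b-3p.

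The 2 arms of a hairpin are cut from 1 precursor, and 122 hairpins had both arms tested. The arms had the same direction in 83 of these, and their fold changes had a Pearson r of 0.51 across hairpins, or 80 and 0.50 with the library-set term, as a description, since the arms share the libraries. miR-187, miR-34c and miR-7a-2 were among those with both arms in 1 direction, and miR-7a-1-3p moved against miR-7a-5p, whose reads come from 2 hairpins.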

How the data were processed

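Small RNA of the BLA was sequenced in 12 libraries, and groups and replicate numbers come from the sample labels. The authors trimmed adapters with Cutadapt, predicted miRNAs with miRDeep2, aligned reads to mouse precursors with Novoalign and deposited a tag count per mature miRNA and library. CASAVA 1.8 and hg38, a human build, are named in the submitters' processing notes, and which release of the miRNA reference was used is not stated there or in the paper. The table's 1169 lines included 109 repeats of a sequence with its counts. Reads of miRNAs that differ by a base or in their ends can be split between entries, and 24 of the 43 predicted miRNAs tested overlap an annotated mature sequence, within it or around it. A normalized table was not used here. Columns of unknown sample numbered 0.

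Counts were tested with edgeR 4.0.16 in R 4.3.3: TMM, filterByExpr with a minimum count of 10, and a quasi-likelihood fit of all 12 libraries with the contrast RE minus F. The limits, a log2 fold change of 1 and an unadjusted p of 0.05, are those of the paper's methods. For miRNAs in RE against E the paper gave a lower fold change limit, and it restated none for RE against F. The p-values were adjusted by Benjamini-Hochberg over the 431 miRNAs tested. CPM values use TMM library sizes, log2 CPM a prior count of 2, and standard errors are the log2 fold change over the square root of F. The steps were tested on simulated data with less spread and no library sets, so that test does not show how they perform here. Libraries of a group differed by far more than counting error (chi-square of 34.4 to 972 for each degree of freedom), so none was counted as a repeat. Alternatives were DESeq2 1.42.0, its size factors, library totals, no filter, a mean count of 50, RE and F alone, a robust fit, edgeR's exact test, annotated miRNAs alone, a term for the let-7g-5p libraries, leaving these out, and leaving out each library.

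Most of the 61 miRNAs followed through the alternatives were taken by a rule, and not every miRNA that met it was kept. The rule took those past the limits in the fits above and those the paper names for this comparison with their arms and clusters. It also took the most abundant members of each list, the most abundant miRNAs, and the largest differences without overlap. Others without overlap, and miRNAs shown because they share a seed or a hairpin region, were named after their values were seen. Members, lists and tests were chosen with earlier results of these data known. Positions are those of RefSeq hairpins (GRCm38.p6), and host genes those of GENCODE.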

Additional observations from a re-analysis of the deposited data

How the results depend on the processing

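The 61 miRNAs followed had 1365 log2 fold changes under the alternatives. Of these 1263 kept their direction and their side of the limits, 19 kept the direction and no longer passed, 37 newly passed, and 46 turned. These counts hold for the miRNAs picked and do not describe all 431 tested. The count of miRNAs higher in RE was 6 without a filter, 0 with a mean count of at least 50, 5 with the library-set term and 8 without the let-7g-5p libraries, against 3 in the fit reported. The count of lower miRNAs was 9 without a filter, 1 with DESeq2, 2 with the library-set term and 2 without the let-7g-5p libraries, against 0. Without a filter 1 miRNA, a prediction of chromosome 18, had an adjusted p under 0.05 (0.0323, edgeR). Leaving out each library gave 1 to 8 higher, 0 to 5 lower and 0 to 0 at an adjusted p under 0.05. miR-206-3p passed the limits in every alternative that tested it, and was not tested with a mean count of 50. Log2 fold changes that turned were those of miR-126a-3p (-0.016 with library totals, -0.012 without the let-7g-5p libraries), miR-128-3p (-0.014 and -0.040), miR-143-3p (0.013 with the library-set term), miR-375-3p (-0.00575 with DESeq2's size factors, -0.079 with library totals, -0.00618 with DESeq2, -0.0037 with the library-set term, -0.078 without the let-7g-5p libraries), and, without the let-7g-5p libraries, let-7g-5p (-0.099), miR-200a-3p (0.23) and miR-200c-3p (0.43). With a library left out, miR-126a-3p ran from -0.26 to 0.26, miR-375-3p from -0.57 to 0.48, miR-128-3p from -0.066 to 0.14, miR-1264-3p from -0.80 to 0.069, miR-200a-3p from -1.25 to 0.14, miR-200c-3p from -1.99 to 0.67, miR-204-5p from -0.40 to 0.092, miR-429-3p from -1.35 to 0.14, miR-143-3p from -0.38 to 0.17, miR-148a-3p from -0.65 to 0.35, miR-142a-5p from -1.24 to 0.17, miR-219a-5p from -0.079 to 1.27, miR-34c-5p from -0.22 to 0.81, let-7g-5p from -0.11 to 0.19, and miR-30e-5p from -0.12 to 1.08. The cause was not tested. The median over all miRNAs was -0.07 with library totals. No paired analysis was possible because the RE and F labels share only the number 3. Counts under about 20 in a library, as for miR-338-3p, limit what can be seen of scarce miRNAs.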

Other observations

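A few scarce or predicted miRNAs had large differences with wide spread. The highest log2 fold change, 2.15 ± 1.52 (SE), was that of a predicted miRNA of chromosome 18, with 74.5, 0 and 36.4 CPM in RE replicates 3, 4 and 5 and 0, 1.59 and 21.6 CPM in F replicates 1, 2 and 3. RE replicate 4 and F replicate 1 had 0 counts of it, which allows up to 3 counts in each. A predicted miRNA of chromosome 7 had 47.4, 12.3 and 23.1 CPM in RE replicates 3, 4 and 5 against 57.5, 76.2 and 44.1 CPM in F replicates 1, 2 and 3 (-1.11 ± 0.53, SE), and only RE replicate 3 reached the F range. Another of chromosome 7 was at 24.2, 27.7 and 28.7 CPM in RE and 17.5, 16.7 and 21.6 CPM in F, in the same order of replicates, without overlap (0.53 ± 0.23, SE, edgeR, unadjusted p = 0.0418). A predicted miRNA of chromosome 8 was at 1303, 1139 and 1236 CPM in RE and 845, 1065 and 1137 CPM in F (0.27 ± 0.18, SE), where RE replicate 4 and F replicate 3 nearly met. miR-344f-3p, from chromosome 7, was at 2.90, 9.99 and 8.82 CPM in RE and 15.5, 15.1 and 11.99 CPM in F (-0.93 ± 0.55, SE), from 3 to 16 counts in RE libraries and 19 to 25 in F libraries.

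Without the let-7g-5p libraries, 4 further scarce miRNAs passed the limits. miR-3078-5p was lower (-1.29), with 4.84 to 11.5 CPM in the 3 RE libraries and 11.0 to 14.3 CPM in the 3 F libraries. miR-34c-3p (1.896) and a predicted miRNA of chromosome 11 (1.92) were higher, and a predicted miRNA of chromosome 8 was lower (-1.49), each from libraries with 4 to 56 counts or, in 1 F library, 0 counts.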
